A study of Mus musculus with 20 samples.

Results

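A set of 10 genes of p53-type growth arrest were followed in liver RNA of mice in acute endoplasmic reticulum stress (ERS), namely Cdkn1a, Mdm2, Trp53, Trp53inp1, Ccng1, Gadd45a, Gadd45b, Btg2, Sesn1 and Phlda3. They were found by gene symbol among the annotated probesets of a whole-transcript mouse array (MoGene-2_0-st), and 8 of the 10 had a probeset listed with their symbol alone, of 22180 genes measured in all. No probeset was listed with Trp53, which was not analysed here, and Gadd45a was listed only on a probeset that is also listed with the overlapping transcript E230016M11Rik, so no value was given to it. The arrays came from 20 adult male C57Bl6 mice, with 1 array per mouse and 5 mice in each of 4 groups: wild-type (WT) mice given vehicle (dextrose) or tunicamycin, and NFIL3 KO mice given vehicle or tunicamycin. Tunicamycin, which blocks N-glycosylation and so causes misfolding of proteins in the endoplasmic reticulum, was injected at 1 µg per g, and livers were taken after 8 h. Per the study's methods the KO mice are Nfil3-/- and the WT mice are their littermates, and whole liver was sampled.

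p53, the product of Trp53, is a transcription factor that accumulates after DNA damage and other stresses and switches on genes that stop the cell cycle, repair DNA or kill the cell. Cdkn1a encodes p21, which inhibits cyclin-dependent kinases, whereas Mdm2 encodes the ubiquitin ligase that removes p53 and thereby closes a feedback loop. Hepatocytes of the adult liver are mostly quiescent, and p21 is known to restrain their return to the cycle after injury. Several of these genes are also known to be switched on without p53, for example by ATF4 and CHOP, the transcription factors of the PERK arm of the unfolded protein response.

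Promoters are shown because 5 of the members rose with tunicamycin and 1 fell. The RefSeq table of mouse promoters (GRCm38.p6, from 250 bases before to 50 bases after each gene start) held 11 promoters of 300 bases for 9 members, all but Trp53inp1. Those of Cdkn1a (upstream start, chr17:29090729-29091028, plus strand) and Btg2 (chr1:134079106-134079405, minus strand) belong to the members with the highest responses, that of Ccng1 (chr11:40755237-40755536, minus strand) held the most CCAAT boxes, and that of Sesn1 (upstream start, chr10:41810324-41810623, plus strand) belongs to the member that fell. Capitals mark every match to a pair of CATG separated by 6 bases, the core of a p53 element, or to CCAAT, on either strand.
Cdkn1a: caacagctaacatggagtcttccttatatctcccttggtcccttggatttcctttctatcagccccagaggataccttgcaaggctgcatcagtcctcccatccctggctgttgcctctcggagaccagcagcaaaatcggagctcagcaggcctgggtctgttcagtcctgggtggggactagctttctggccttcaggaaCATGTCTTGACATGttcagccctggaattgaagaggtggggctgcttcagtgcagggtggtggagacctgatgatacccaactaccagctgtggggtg
Btg2: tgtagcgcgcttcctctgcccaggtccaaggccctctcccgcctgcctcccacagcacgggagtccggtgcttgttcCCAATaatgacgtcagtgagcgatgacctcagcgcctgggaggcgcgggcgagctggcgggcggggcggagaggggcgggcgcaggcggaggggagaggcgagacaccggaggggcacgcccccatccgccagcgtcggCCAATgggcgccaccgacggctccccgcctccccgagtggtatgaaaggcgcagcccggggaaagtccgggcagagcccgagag
Ccng1: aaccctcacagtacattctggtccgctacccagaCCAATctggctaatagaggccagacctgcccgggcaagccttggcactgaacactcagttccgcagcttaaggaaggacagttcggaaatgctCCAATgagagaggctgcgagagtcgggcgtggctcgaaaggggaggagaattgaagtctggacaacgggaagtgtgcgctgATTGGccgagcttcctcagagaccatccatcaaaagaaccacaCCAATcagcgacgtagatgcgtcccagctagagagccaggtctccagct
Sesn1: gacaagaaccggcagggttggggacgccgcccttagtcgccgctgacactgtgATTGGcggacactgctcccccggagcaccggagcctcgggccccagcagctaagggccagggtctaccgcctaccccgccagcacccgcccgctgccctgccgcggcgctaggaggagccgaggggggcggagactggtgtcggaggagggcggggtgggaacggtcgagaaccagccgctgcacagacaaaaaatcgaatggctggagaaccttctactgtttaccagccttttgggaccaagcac
The pair of CATG separated by 6 bases was found on either strand in 1 of the 11 promoters, and in 0.712% of all 32851 promoters of the same length. It stood in the promoter of the upstream start of Cdkn1a, between 48 and 35 bases before that start. The promoter of the other Cdkn1a start (chr17:29093519-29093818) held no such pair. CCAAT was found on either strand in 8 of the 11, in 37.4% of all. CCAAT stood in the promoters of Btg2, Gadd45a, Gadd45b, Mdm2 and Trp53, in both promoters of Sesn1, and at 4 positions in that of Ccng1. None of the 11 held TGATGNAA, the core of the C/EBP-ATF element (3.97% of all promoters), TTANNTAA, the core of the D-box to which NFIL3 binds (6% of all), or the ER stress element, a CCAAT box followed after 9 bases by CCACG (0.119% of all), each searched on both strands. Such a match describes the letters of this window and is no measure of binding.

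Values are log2 signals after robust multi-array averaging (RMA), so a difference of 1 is 1 step of doubling. The tables were complete for all 20 arrays, whose medians lay between 4.65 and 4.77, and treatment separated all tunicamycin arrays from all vehicle arrays on the first principal component, which held 54.6% of the variance. Replicate 3 of the NFIL3 KO tunicamycin group stood apart, with a score of 22.9 on that component where the other 4 of its group lay between 34.9 and 41.8, and a mean correlation with its group of 0.974 where the other 19 arrays lay between 0.977 and 0.982. Calls of the members and counts of the lists that change without it are given both ways. Differences without it are given for some members only. Nfil3 itself rose in WT livers from 6.44 ± 0.45 to 7.99 ± 0.47 (SD, n = 5), and stood at 5.41 ± 0.20 with vehicle and 5.25 ± 0.46 with tunicamycin in the KO. The KO lay below WT with tunicamycin by a log2 difference of -2.75 (adjusted p = 4.1e-07, limma with Benjamini-Hochberg adjustment over all genes, as for every adjusted p here), and with vehicle the difference of -1.03 did not pass (adjusted p = 0.227). Every KO vehicle array still lay below every WT vehicle array, with the highest KO at 5.70 and the lowest WT at 5.79. Whether the probes lie in the deleted piece of the gene is not known here. Hepatocyte markers were high in every group, with Alb between 13.43 and 13.61 over the 20 arrays. Serpina1a, the lowest of the 7 measured, lay between 8.20 and 9.82, and 4 of the 7 fell with tunicamycin in both genotypes.

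The first question was how the arrest genes respond to acute ERS. They were chosen with earlier results of these data known, so the shares below are a description. In WT livers 5 of the 8 measured members rose, 1 fell and 2 did not pass an adjusted p of 0.05, against 13.7% of all genes that rose and 13.7% that fell. The same 5 rose and the same 1 fell in NFIL3 KO livers, where 13.5% of all genes rose and 13.7% fell. Cdkn1a, Btg2, Trp53inp1, Ccng1 and Mdm2 were the 5 that rose, Sesn1 fell, and Gadd45b and Phlda3 did not pass. The median log2 difference over the 8 members was 0.99 in WT and 0.87 in KO, and -0.03 over all genes in both. All 5 tunicamycin arrays lay above all 5 vehicle arrays for 5 members in WT (11.7% of all genes) and for 4 members in KO (10.3% of all genes), and below them for 1 member in each (10.5% and 10.6% of all genes).

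Cdkn1a, the inhibitor of cyclin-dependent kinases, had the highest response of the members. With vehicle, the 5 WT arrays were at 4.93, 5.28, 5.15, 5.19 and 5.08, and with tunicamycin at 8.44, 9.17, 7.83, 8.80 and 9.33. In the KO, the vehicle arrays were at 5.61, 5.46, 5.40, 5.19 and 5.39, and the tunicamycin arrays at 8.88, 9.18, 9.29, 9.65 and 9.60. In both genotypes the lowest treated liver stood well above the highest vehicle liver, and the treated WT livers were the most spread of the 4 groups. The rise was 3.59 ± 0.20 (SE) on the log2 scale in WT, a 12.0-fold change (adjusted p = 5.1e-12), and 3.91 ± 0.20 in KO, a 15.1-fold change (adjusted p = 1.8e-12). With vehicle the level was close to the array median, the lowest array lying 0.26 above it, so these folds are ratios of RMA values over a dim vehicle level.

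Btg2, an antiproliferative partner of the CCR4-NOT deadenylase, followed. Its WT arrays were at 5.84, 5.80, 5.57, 5.82 and 5.32 with vehicle and at 7.89, 7.88, 7.68, 7.48 and 8.16 with tunicamycin. Its KO arrays were at 5.66, 5.86, 6.08, 6.04 and 6.45 with vehicle and at 8.05, 7.91, 6.72, 7.87 and 7.47 with tunicamycin. The groups did not overlap in either genotype, and the low KO value of 6.72 came from replicate 3. Btg2 rose by 2.15 ± 0.20 in WT (4.43-fold, adjusted p = 1.3e-08) and by 1.59 ± 0.20 in KO (3.01-fold, adjusted p = 1.2e-06). Without replicate 3 the KO difference was 1.81 (adjusted p = 1.3e-08).

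Trp53inp1 encodes a p53-inducible nuclear protein with roles in cell death and autophagy. In WT it was at 8.47, 8.26, 8.02, 8.08 and 8.85 with vehicle and at 9.73, 9.83, 9.72, 9.63 and 10.21 with tunicamycin. In KO it was at 7.88, 8.75, 8.33, 8.48 and 9.13 with vehicle and at 9.25, 10.01, 9.70, 9.89 and 9.68 with tunicamycin. No vehicle array reached a treated one, although the highest KO vehicle array (9.13) and the lowest KO tunicamycin array (9.25) were close. It rose by 1.49 ± 0.19 in WT (2.80-fold, adjusted p = 2.1e-06) and by 1.19 ± 0.19 in KO (2.29-fold, adjusted p = 3.9e-05).

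Ccng1 encodes cyclin G1, a p53 target that recruits a phosphatase to MDM2. Its WT arrays were at 8.93, 9.0, 8.83, 8.62 and 8.54 with vehicle and at 10.17, 10.16, 9.93, 10.18 and 10.16 with tunicamycin. Its KO arrays were at 8.71, 8.43, 8.60, 8.63 and 8.91 with vehicle and at 10.02, 9.72, 9.92, 9.68 and 10.07 with tunicamycin. The groups were far apart and narrow, with an SD of 0.11 to 0.20. It rose by 1.34 ± 0.11 in WT (2.53-fold, adjusted p = 2.0e-09) and by 1.23 ± 0.11 in KO (2.34-fold, adjusted p = 8.2e-09). The 95% confidence intervals of Trp53inp1 (1.08 to 1.89) and Ccng1 (1.11 to 1.56) in WT overlapped, so the order of these neighbours was not resolved.

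Mdm2, the ligase that degrades p53, rose least of the 5. In WT it was at 7.22, 7.56, 7.13, 7.37 and 7.36 with vehicle and at 8.04, 8.06, 7.94, 7.93 and 7.84 with tunicamycin. In KO it was at 7.36, 7.44, 7.07, 7.48 and 7.32 with vehicle and at 7.95, 7.98, 7.42, 8.02 and 7.98 with tunicamycin. The WT groups were separate, whereas in KO replicate 3 fell among the vehicle arrays. Mdm2 rose by 0.64 ± 0.11 in WT (1.55-fold, adjusted p = 1.2e-04) and by 0.54 ± 0.11 in KO (1.45-fold, adjusted p = 7.7e-04), and the KO difference was 0.65 without replicate 3 (adjusted p = 1.6e-05).

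Sesn1, a sestrin that restrains mTORC1, went the other way. In WT it was at 7.29, 6.89, 7.18, 6.59 and 6.66 with vehicle and at 6.50, 6.0, 5.98, 6.17 and 5.99 with tunicamycin. In KO it was at 6.84, 6.78, 6.84, 7.14 and 6.96 with vehicle and at 6.46, 6.33, 6.50, 5.96 and 5.93 with tunicamycin. Every treated liver lay below every vehicle liver of its genotype. The log2 difference was -0.79 ± 0.15 in WT (1.73-fold lower, adjusted p = 1.7e-04) and -0.68 ± 0.15 in KO (1.6-fold lower, adjusted p = 9.2e-04).

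Gadd45b, a stress sensor that binds p38-activating kinases and p21, and Phlda3, an inhibitor of AKT, were close to the array median. Over the 20 arrays Gadd45b lay between 0.07 below and 0.95 above the array median, and Phlda3 between 0.02 and 0.76 above it. Gadd45b was at 5.25 ± 0.26 with vehicle and 5.02 ± 0.28 with tunicamycin in WT, and at 5.43 ± 0.20 and 5.21 ± 0.36 in KO. Its 95% intervals of the difference reached from -0.58 to 0.11 in WT (adjusted p = 0.354) and from -0.56 to 0.12 in KO (adjusted p = 0.402). Phlda3 was at 5.18 ± 0.13 and 4.99 ± 0.23 in WT and at 5.25 ± 0.22 and 4.97 ± 0.22 in KO. Its difference was -0.19 in WT (95% interval -0.45 to 0.08, adjusted p = 0.331) and -0.28 in KO (95% interval -0.54 to -0.02, adjusted p = 0.119). Without replicate 3 of the treated KO group the KO difference was -0.37 and passed (adjusted p = 0.0263).

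**Figure D1:**
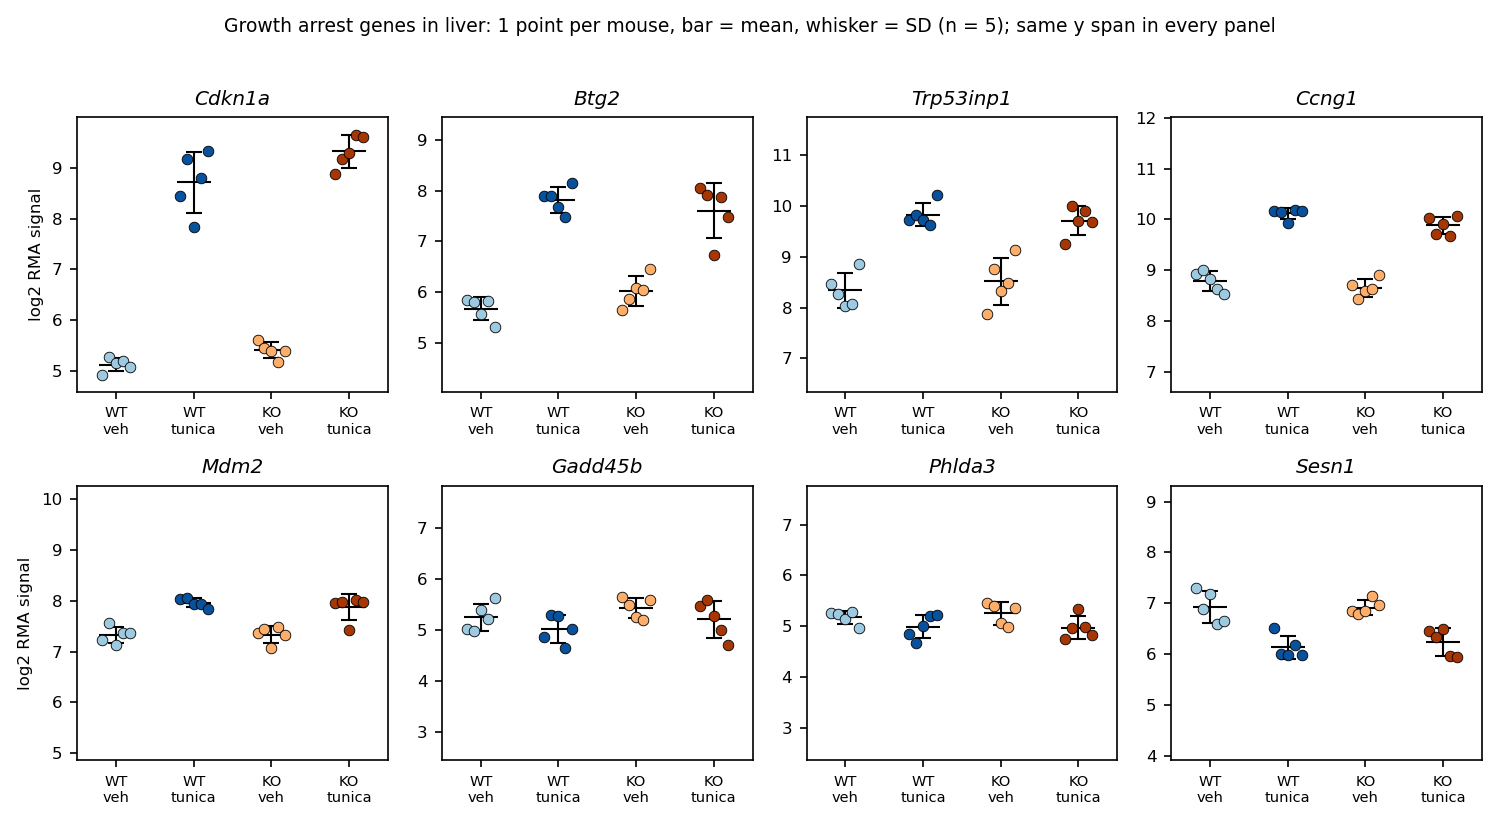
Log2 RMA signal of each of the 8 measured members in the 4 groups, with 1 point per mouse, the bar at the mean and the whisker at the SD (n = 5). Every panel covers the same number of log2 units, so the rise of Cdkn1a from 5.12 to 8.71 in WT can be set beside the near level values of Gadd45b and Phlda3 and the lower treated values of Sesn1.

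**Figure D2:**
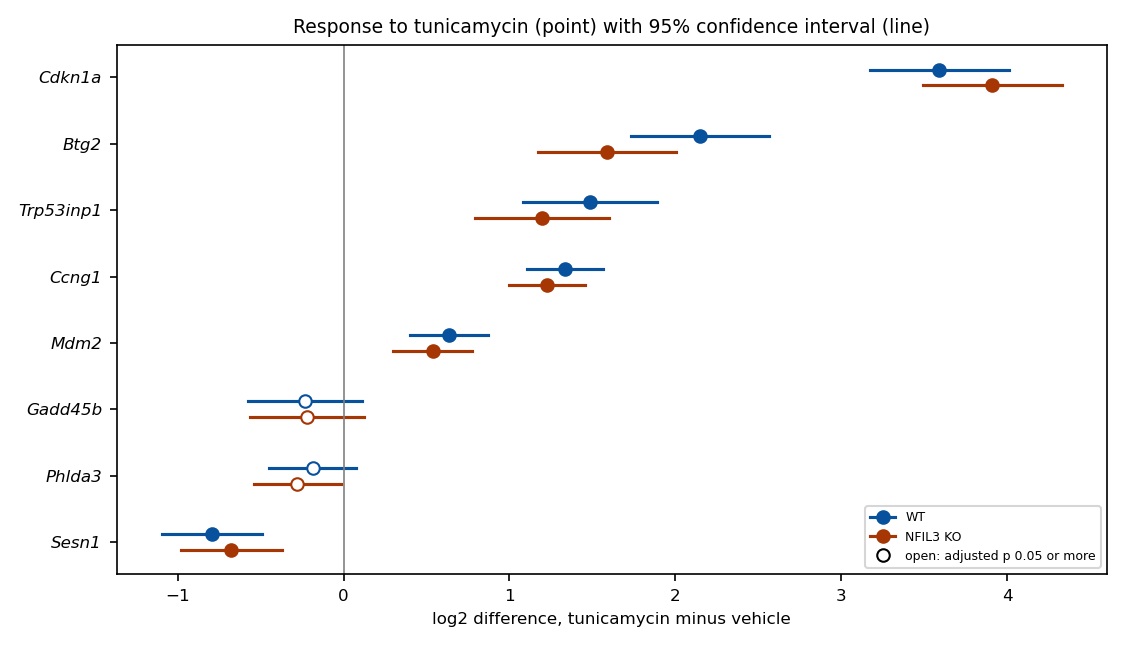
Log2 difference of tunicamycin minus vehicle (x axis), in blue for WT and in red for NFIL3 KO, for the 8 members, with the 95% confidence interval from limma as a line and open points for an adjusted p of 0.05 or more. The 2 genotypes give 5 members above 0, Sesn1 below 0, and open points for Gadd45b and Phlda3.

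The second question was whether loss of NFIL3, itself induced by ERS, changes these genes. None of the 8 members passed in any of the 3 comparisons that involve genotype. With vehicle, the KO minus WT differences ran from -0.13 (Ccng1) to 0.35 (Btg2), 0 of the 8 had an unadjusted p under 0.05 (5.34% of all genes did), and the adjusted p lay between 0.942 and 0.999, where 0.0225% of all genes (5) passed. With tunicamycin they ran from -0.24 (Ccng1) to 0.61 (Cdkn1a), with adjusted p between 0.329 and 0.98, where 0.243% of all genes (54) passed. The interaction, that is the response in KO minus the response in WT, ran from -0.56 (Btg2) to 0.32 (Cdkn1a) with an adjusted p of 1 for all 8, where 0.00902% of all genes (2) passed and 0 members had an unadjusted p under 0.05 (4.59% of all genes did).

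With tunicamycin 2 of the 8 members had an unadjusted p under 0.05, as did 8.95% of all genes (1986). Cdkn1a was 0.61 ± 0.20 higher in KO (95% interval 0.19 to 1.02, unadjusted p = 0.0067, adjusted p = 0.329), with the treated WT arrays from 7.83 to 9.33 and the treated KO arrays from 8.88 to 9.65, and was 0.38 higher without the lowest treated WT array, replicate 3. Ccng1 was at 10.12 ± 0.11 in WT and 9.88 ± 0.18 in KO, a difference of -0.24 (95% interval -0.47 to -0.01, unadjusted p = 0.0408, adjusted p = 0.526). Both pairs of groups overlapped. The interaction of Btg2, -0.56 ± 0.28, had an interval from -1.15 to 0.02 and was -0.34 without replicate 3 of the treated KO group. The intervals of the interaction differed in width between the 8 members, for example from -0.27 to 0.91 for Cdkn1a and from -0.43 to 0.21 for Ccng1. Genotype effects on the response within a member's own interval were not resolved with 5 mice per group.

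**Figure D3:**
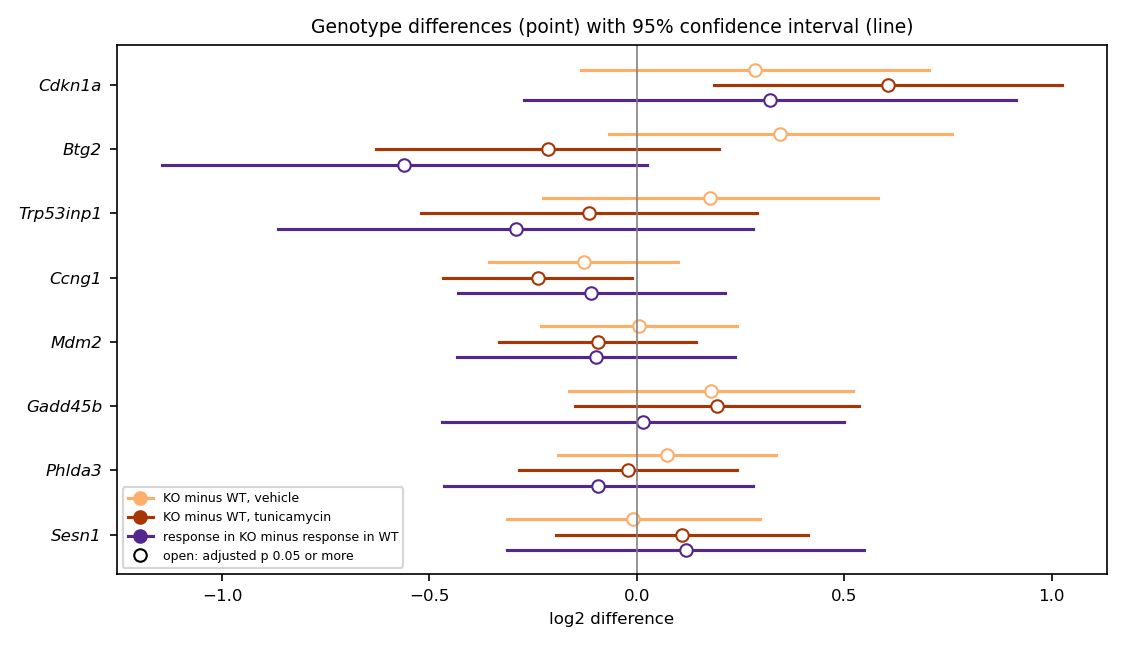
Log2 differences between genotypes for the 8 members (x axis): KO minus WT with vehicle, KO minus WT with tunicamycin, and the response in KO minus the response in WT, each with its 95% confidence interval. All points are open, as no adjusted p was under 0.05. With tunicamycin the interval of Cdkn1a (0.19 to 1.02) lies above 0 and that of Ccng1 (-0.47 to -0.01) lies below 0.

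The members were then set beside the genes around them. Of 15 regulators of p53, 6 rose and 3 fell in WT, and 6 rose and 2 fell in KO, with a median difference of 0.21 and 0.16. These are shares of 40% and 20% in WT and of 40% and 13.3% in KO, against the 13.5% to 13.7% of all genes called in each direction. Chek1, a checkpoint kinase of damaged or unreplicated DNA, rose by 1.41 ± 0.15 in WT (adjusted p = 1.4e-07) and 1.33 in KO, and Rchy1, which encodes the p53 ubiquitin ligase PIRH2, by 1.16 ± 0.10 (adjusted p = 5.4e-09) and 1.12. Atm, the kinase that signals DNA breaks to p53, had a difference of -1.13 ± 0.10 in WT (adjusted p = 1.1e-08) and -0.93 in KO, and Hipk2, a kinase that phosphorylates p53, of -1.11 ± 0.10 (adjusted p = 7.7e-09) and -1.0. Without replicate 3 of the treated KO group 7 rose and 2 fell in KO, and Mdm4, a partner and paralogue of Mdm2, passed in WT too (0.23, adjusted p = 0.0296, against 0.102 with all arrays).

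Among other known p53 targets, 10 of 27 measured rose and 4 fell in WT, and 6 rose and 3 fell in KO, with medians of 0.12 and 0.10. The shares that rose and fell were 37% and 14.8% in WT and 22.2% and 11.1% in KO. Of all genes, 13.7% rose and 13.7% fell in WT, and 13.5% rose and 13.7% fell in KO. The shares that fell were near those of all genes, so a gene named here as lower is a single case. Without replicate 3 of the treated KO group 7 rose and 3 fell in KO. Sesn2, a sestrin that is also a known target of ATF4 and is counted on 3 of the lists, rose by 1.59 ± 0.19 in WT (adjusted p = 7.6e-07) and 1.68 in KO. Aen, an exonuclease of p53-dependent cell death, rose by 1.02 ± 0.13 (adjusted p = 1.7e-06) and 1.00, and Tigar, a phosphatase that slows glycolysis, by 0.65 ± 0.10 (adjusted p = 2.3e-05) and 0.78. Perp, a desmosomal protein and effector of p53-dependent death, had a difference of -0.81 ± 0.12 (adjusted p = 1.1e-05) and -0.91. Bbc3 and Pmaip1, both killers of the BH3-only class, did not pass, with Bbc3 at -0.06 in WT and -0.16 in KO and Pmaip1 at 0.05 and -0.09.

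Relatives of the members were counted next. Of 15 measured paralogues 2 rose and 4 fell in WT, and 3 rose and 4 fell in KO, with medians of -0.26 and -0.04. The shares that rose were 13.3% and 20%, and 26.7% fell in both, beside 13.5% to 13.7% of all genes in each direction. In the sestrin family Sesn1 and Sesn3 fell, the latter with a difference of -0.57 ± 0.11 in WT (adjusted p = 2.3e-04) and -1.0 in KO (adjusted p = 1.5e-07), whereas Sesn2 rose. Phlda1, the relative of Phlda3, had a difference of -2.76 ± 0.33 in WT (6.78-fold lower, adjusted p = 6.1e-07) and -2.64 in KO. Tob1, of the BTG family to which Btg2 belongs, had a difference of -0.46 ± 0.12 (adjusted p = 0.00524) and -0.81. Ccng2, the relative of Ccng1, was the 1 of 15 paralogues that passed in a genotype comparison, and was named after its value was seen. It was 0.61 ± 0.12 higher in KO than in WT with tunicamycin (adjusted p = 0.031), where 0.243% of all genes (54) passed. Its interaction of 0.43 did not pass (adjusted p = 1). Without replicate 3 of the treated KO group its difference with tunicamycin was 0.69 (adjusted p = 0.0111). In WT 3 paralogues then rose and 4 fell, as Mdm4 passed.

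Of 7 other inhibitors of cyclin-dependent kinases, 1 rose and 1 fell in WT (14.3% each, near the share of all genes). In KO 1 rose and 2 fell (14.3% and 28.6%), against 13.5% and 13.7% of all genes. With so few genes these calls are single cases. Cdkn1b, which encodes p27 and is also the paralogue of Cdkn1a, rose by 0.75 ± 0.12 in WT (adjusted p = 3.5e-05) and 0.51 in KO. Cdkn2d had a difference of -0.43 in WT (adjusted p = 0.00108) and -0.36 in KO (adjusted p = 0.0051), and Cdkn2c of -0.28 (adjusted p = 0.217) and -0.51 (adjusted p = 0.0178). Of 30 measured drivers of the cell cycle, 4 rose and 6 fell in WT and 4 rose and 3 fell in KO, with medians of -0.01 and -0.04. The 13.3% that rose in each genotype was near the 13.7% and 13.5% of all genes that did, and 20% and 10% fell, so the genes named are single cases and not a result about the list. Top2a, the topoisomerase of proliferating cells, rose by 1.67 ± 0.16 in WT (adjusted p = 1.6e-08) and 1.03 in KO. Cdc25a, the phosphatase that activates CDK2, rose by 1.02 ± 0.15 (adjusted p = 9.9e-06) and 0.99, Mcm7, a helicase subunit, by 0.76 and 0.79, and Pcna, the sliding clamp and itself a known p53 target, by 0.52 and 0.58. Cdk1, the mitotic kinase, had a difference of -0.61 in WT (adjusted p = 1.7e-04) and -0.26 in KO (adjusted p = 0.11). Mki67 (-0.13, adjusted p = 0.508) and Ccna2 (0.07, adjusted p = 0.843) in WT did not pass. Without replicate 3 of the treated KO group Ccnd1, which encodes cyclin D1, passed between the genotypes with tunicamycin (KO minus WT -0.72, adjusted p = 0.0295), and the counts in KO were again 4 and 3 with Mcm5 in and Cdk2 out.

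The ATF4 and CHOP arm rose almost as a whole, with 13 of 14 genes (92.9%) in both genotypes. Of all genes 13.7% rose in WT and 13.5% in KO. The list was chosen with earlier results of these data known, so its share is a description. The medians of the arm, 2.04 in WT and 2.12 in KO, were above those of the arrest genes. Ddit3, which encodes CHOP, rose by 5.48 ± 0.18 in WT (adjusted p = 1.4e-15) and 4.56 in KO, Nupr1, a stress-induced transcription cofactor, by 5.17 ± 0.16 (adjusted p = 5.1e-16) and 4.22, Psat1, of serine synthesis, by 4.38 and 3.88, and Trib3, a pseudokinase target of CHOP, by 4.20 and 3.84. Cebpb, the exception, had a difference of -0.31 ± 0.20 in WT (adjusted p = 0.297) and -0.29 in KO (adjusted p = 0.34). For Ddit3, KO minus WT was 0.79 with vehicle (adjusted p = 0.24) and -0.13 with tunicamycin (adjusted p = 0.872). For Nupr1 it was 0.83 with vehicle (adjusted p = 0.0872) and -0.12 with tunicamycin (adjusted p = 0.865), and none of these passed. Comparisons in which a difference stood in only 1 genotype were not tested beyond the interaction, which passed for no gene of these lists. Without replicate 3 of the treated KO group the count of this arm in KO was again 13 of 14, with a median of 2.30.

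**Figure D4:**
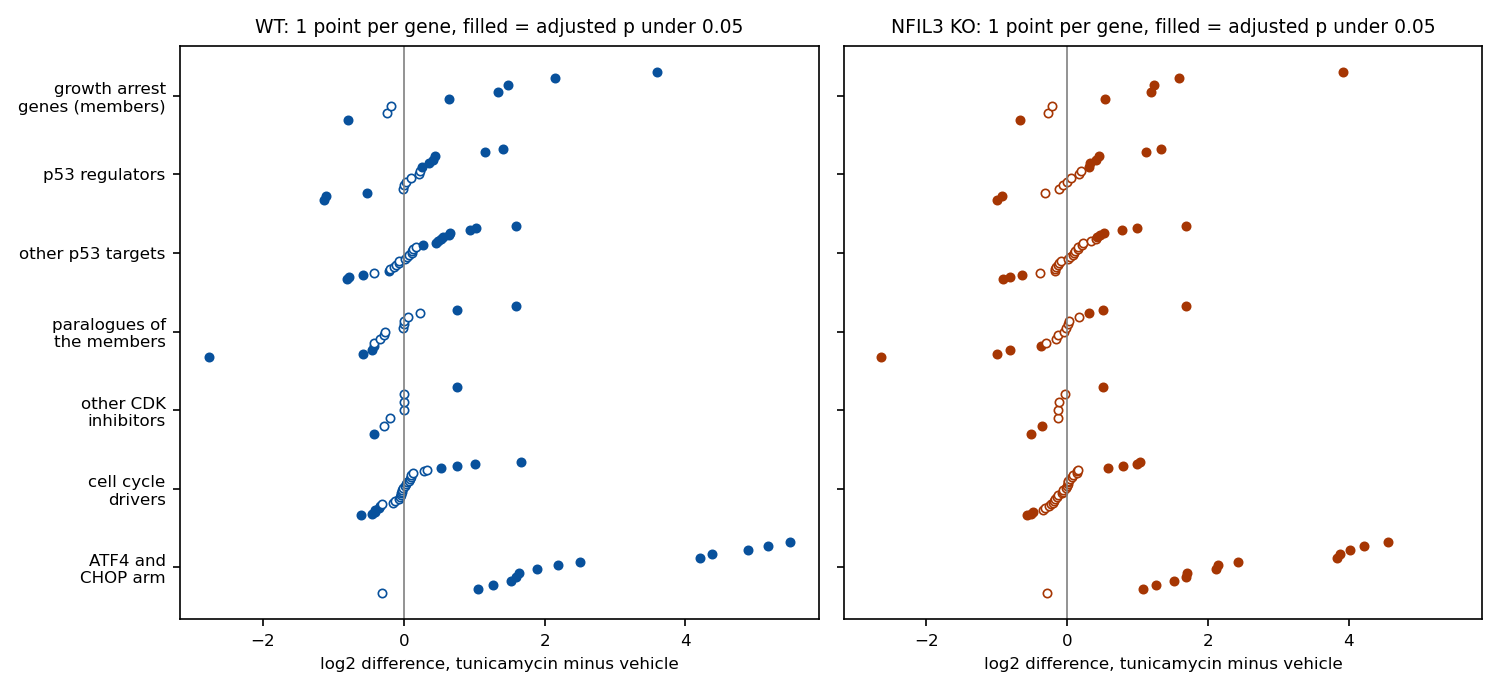
Log2 difference of tunicamycin minus vehicle (x axis) in WT and in NFIL3 KO for each measured gene of 7 lists, with 1 point per gene and filled points for an adjusted p under 0.05. The ATF4 and CHOP arm lies to the right of 0 but for 1 gene, whereas regulators, other p53 targets, paralogues and cell cycle drivers spread to both sides.

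Markers of liver cell types were read beside these results, since in whole liver fewer cells of a type and less RNA per cell cannot be told apart. Of 7 measured hepatocyte markers 4 fell and 0 rose in both genotypes, with a mean log2 level of 12.52 to 12.62 over the WT vehicle arrays and 12.22 to 12.34 over the WT tunicamycin arrays, and of 12.51 to 12.60 and 12.21 to 12.29 in KO. Of 9 Kupffer cell markers 2 rose in WT and 0 in KO, with mean levels of 6.81 to 7.99 and 7.34 to 7.75 in WT and 7.31 to 7.64 and 7.02 to 7.75 in KO. Of 7 sinusoidal endothelial markers 3 fell in both, with levels of 7.75 to 7.98 and 7.65 to 7.93 in WT and 7.81 to 8.03 and 7.61 to 7.94 in KO. Of 4 cholangiocyte markers 1 fell in WT and 0 in KO, and 0 of the stellate, T and B cell, neutrophil and erythroid markers passed. The shares that fell were 57.1% of hepatocyte and 42.9% of endothelial markers in both genotypes, and 25% of cholangiocyte markers in WT. Of the Kupffer cell markers 22.2% rose in WT. Of all genes 13.5% to 13.7% were called in each direction, so calls of 1 or 2 markers are single cases. Without replicate 3 of the treated KO group 2 endothelial markers and 1 cholangiocyte marker fell in KO. The part of these shifts in the result was not tested.

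The profiles over the 20 arrays were last compared with those of 10388 other genes, as a description, since the arrays fall into vehicle and tunicamycin clusters and any gene with that split correlates with any other. Cdkn1a was most like Rora, Sec63 and Osbpl2 (Pearson r 0.99, 0.98 and 0.98), Ccng1 most like Pex2, Dnajc10 and Ormdl2 (0.98 each), and Btg2 most like Ubfd1, Ttc41 and Pelo (0.98, 0.97 and 0.97). Mdm2 was most like Gtf3c5, Sec23ip and Alg11 (0.96 each), Trp53inp1 most like Ell2, Atf5 and Slc38a2 (0.94 each), and Sesn1 most like Gpcpd1, Pigyl and Sntg2 (0.93 each). For the members that did not pass, the nearest profiles were looser, with Gltp at 0.76 for Gadd45b and Cracdl at 0.83 for Phlda3. Once the group means were taken away, the 28 pairs of members had a median r of 0.01, with 13 pairs below 0 and 0 above 0.5.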

How the data were processed

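The authors deposited log2 signals for 41345 probesets on 20 arrays. According to the submitters' processing notes and the study's methods, these values were background-corrected, quantile-normalized and summarized by median polish with RMA in Partek Genomics Suite. They were used as deposited (lowest 0.515, highest 13.7), and no 2 arrays were identical. Groups came from the sample titles, and the mice are separate animals. Quantile normalization assumes alike overall distributions, and RMA understates changes of dim probesets. Precision is set by how many arrays there are.

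A single gene symbol was listed for 23521 probesets, more than 1 symbol for 1820, and no symbol for 16004. The first kind gave 22180 genes, where the mean was taken for the 1082 genes that had more than 1 probeset, and each of the 8 measured members had exactly 1. Group means were fitted to all 20 arrays with limma 3.58.1 in R 4.3.3 (lmFit, eBayes), with 5 two-sided contrasts and Benjamini-Hochberg adjustment over all genes, and adjusted p under 0.05 was called. The code was tested on simulated data. Named genes are all members and, in each list, up to 4 with the smallest adjusted p in either tunicamycin comparison. Bbc3, Pmaip1, Ccng2, Mdm4, Mcm7, Mki67, Ccna2, Ccnd1, Mcm5, Cdk2 and Cebpb were chosen after their values were seen. The members and lists were chosen with earlier results of these data known. Likeness was searched over genes above the median mean signal, leaving out predicted genes, clone-named transcripts and small RNAs. Alternatives covered scaling, filters, averaging, array weights, the model and leaving out each array.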

Additional observations from a re-analysis of the deposited data

Results flagged for a closer look

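In 32 groups of 5 arrays (8 members in 4 groups), 2 held an array whose distance from the rest was large for its group, where chance gives about 1 in 20. Mdm2 in replicate 3 of the NFIL3 KO tunicamycin group was at 7.42, where the other 4 arrays lay between 7.95 and 8.02. The same array was the lowest of its group for Btg2 (6.72) and stood apart over all genes. Ccng1 in replicate 3 of the WT tunicamycin group was at 9.93, where the other 4 lay between 10.16 and 10.18.

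The probeset listed with both Gadd45a, a stress sensor of the growth arrest and DNA damage family, and E230016M11Rik was used in no comparison of genes. It rose by 2.03 ± 0.21 on the log2 scale with tunicamycin in WT (adjusted p = 2.7e-07 over all probesets, limma) and by 2.07 ± 0.21 in NFIL3 KO (adjusted p = 2.2e-07). Treated arrays lay between 8.52 and 9.13 and vehicle arrays between 6.55 and 7.25 in WT, and between 8.28 and 9.75 against 6.61 and 7.43 in KO, without overlap. A separate probeset listed with E230016M11Rik alone had a difference of -0.60 in WT (adjusted p = 0.0386) and -0.39 in KO (adjusted p = 0.218). Which of the transcripts the shared probes measured was not tested.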

How the results depend on the processing

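The number of members called was 6 in WT under all 10 alternative settings (9 for the interaction) and all 20 fits that left out 1 array, 6 to 7 in NFIL3 KO, and 0 in the 3 comparisons that involve genotype. Of 1192 recomputed values of members, 1190 kept their direction, where called, and their side of the threshold. Both exceptions were Phlda3 in KO, which passed with array weights (-0.33, adjusted p = 0.0371, limma) and without NFIL3 KO tunicamycin replicate 3 (-0.37, adjusted p = 0.0263), and whose adjusted p lay between 0.0263 and 0.271 over 30 fits. With replicate number as a block, 6, 6, 0, 0 and 0 members were called. Same-numbered arrays deviated together in 1 of 30 pairs (r over 0.1, range -0.13 to 0.118), and 3 of 20 arrays correlated best with their own number. The labels state no pairing or batch, and whether same-numbered mice shared one was not settled by this check.

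Over all genes, the count called was 5 with vehicle between genotypes (1 to 9 over the settings, 2 to 7 over arrays left out), 54 with tunicamycin (17 to 68, and 26 to 67) and 2 for the interaction (1 to 3 in both). Gadd45b, Phlda3 and, with vehicle, Cdkn1a lie near the array median, where a dim signal limits what differences and folds can show.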
